A study of Sorghum bicolor with 6 samples.

Results

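In leaves of 4-week-old sorghum (Sorghum bicolor), 32 of 34129 gene models had no count in any of the 3 libraries from SbGhd7 overexpression plants (SbGhd7 OE), while each of the 3 libraries from empty vector plants held 10 or more counts of them. These 6 libraries, 3 per group, are the whole study, which asks which leaf transcripts differ when SbGhd7 is overexpressed. Both groups were sampled as leaf tissue at the same age, and the controls carry the vector without the SbGhd7 insert as far as their label says. Details that limit the comparison, namely the sorghum line, the promoter of the transgene, the number of transformation events, the hour of harvest and the number of plants behind a library, were not given in the sources used here. Spread between libraries of a group may therefore be partly technical. The 32 genes were chosen by the very values compared, so their loss of counts is described here and not tested.

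SbGhd7 encodes a CCT-domain protein of the photoperiod pathway, known in sorghum as the maturity gene Ma6. It is known as a repressor of flowering in long days, upstream of the activator EHD1 and of the florigen genes that signal from the leaf to the shoot tip. RNA-seq of whole leaf tissue sums the transcripts of mesophyll, bundle sheath, epidermis, veins and guard cells, so a gene that loses its counts may be less transcribed or may belong to cells that are fewer. In bulk leaf these cannot be told apart. The files hold identifiers only, and the reference table used here matched none of them, so no name, function, position or sequence is attached to the 32 genes. An identifier such as Sobic.006G127900 gives the chromosome number, here 6, followed by a gene number that increases along the chromosome.

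Library totals lay between 27844391 and 35830080 counts, with the largest in empty vector replicate 3, and between 23178 and 23956 gene models had a count in a library. The SbGhd7 transcript (Sobic.006G004400, the published identifier, which the files do not pair with a name) stood at 35, 60 and 35 counts in empty vector replicates 1, 2 and 3 against 17295, 10339 and 20367 in the overexpression replicates 1, 2 and 3, so all 6 libraries fitted their labels. Its log2 fold change was 8.75 (SE 0.454, edgeR adjusted p = 1.0e-05), and an exact two-sided permutation test gave p = 0.1, the smallest that 3 against 3 libraries allow. The 6 genes used as leaf markers, all of C4 photosynthesis by their published identifiers, lay between 198.2 and 18400.3 CPM (counts scaled to library size by TMM) across the libraries and none was at 0. They moved in both directions between the groups. Carbonic anhydrase (Sobic.003G234200), NADP-malate dehydrogenase (Sobic.007G166300), PEPC (Sobic.010G160700) and PPDK (Sobic.009G132900), enzymes of the mesophyll in C4 leaves, rose with log2 fold changes of 4.36, 2.30, 2.13 and 1.17 (edgeR adjusted p at most 0.0026). The bundle sheath NADP-malic enzyme (Sobic.003G036200) fell (log2 fold change -0.99, edgeR adjusted p = 0.0012), and the small subunit of Rubisco (Sobic.005G042000) did not pass (-0.39, edgeR adjusted p = 0.15). Their part in the loss of the 32 genes was not tested. Of 20820 genes tested across the series, 53.3% differed between the groups at an adjusted p under 0.05, 25.3% of them lower and 28.0% higher in SbGhd7 OE as shares of all tested genes.

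A complete loss of counts was rare among genes expressed in the control leaves. In the controls 19426 genes had 10 or more counts in each library, and the 32 genes were 0.165% of them. The share was largest at low control levels. Of the 1280 genes whose lowest control count was 10 to 19, 16 had no count in SbGhd7 OE (1.25%), and of the 1794 genes at 20 to 49 it was 11 (0.613%). At 50 to 99 there was 1 gene among 1663, at 100 to 199 there were 3 among 2050, and at 200 or more there was 1 among 12639. The mirror image, no count in any control and 10 or more in each SbGhd7 OE library, was held by 84 of 19445 genes (0.432%), none of which reached 100 counts in its lowest library. The 4 genes above 100 counts in every control, Sobic.006G127900, Sobic.003G026600, Sobic.005G024900 and Sobic.005G130100, thus had no counterpart of that level in the other direction.

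**Figure D1:**
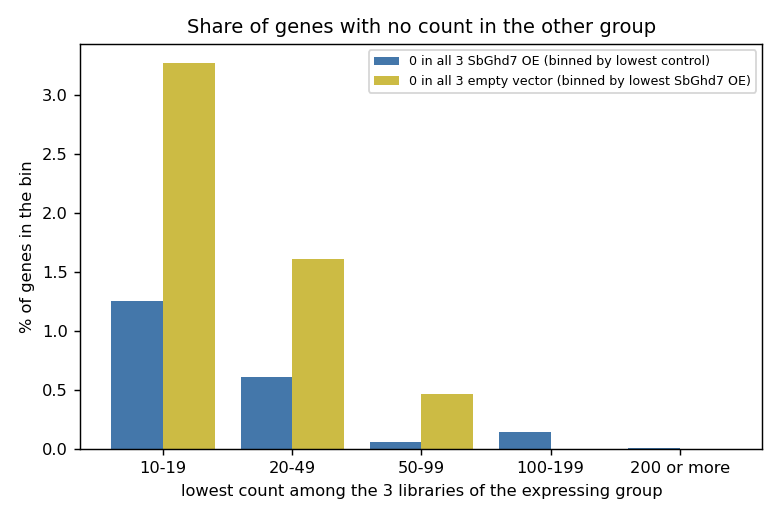
Percent of genes (vertical axis) with no count in all 3 libraries of one group, by the lowest count among the 3 libraries of the expressing group (horizontal axis). Blue bars give genes lost in SbGhd7 OE, from 1.25% at 10 to 19 counts, and yellow bars genes absent from the controls, from 3.27% at 10 to 19 counts and 0 from 100 counts upwards.

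The border of the set is gradual. A further 939 genes had no count in SbGhd7 OE but fell short of 10 counts in at least 1 control, 23 of them with at least 5 counts in each control. Just inside stood Sobic.002G168100, Sobic.003G300000, Sobic.008G157900, Sobic.009G040175 and Sobic.010G227200, whose lowest control library held 10 counts. Just outside, with a lowest control count of 9, stood Sobic.007G063500 (17, 9 and 19 counts in empty vector replicates 1, 2 and 3), Sobic.007G192000 (19, 10 and 9 counts) and Sobic.009G224800 (19, 12 and 9 counts). On the side of SbGhd7 OE, 33 genes with 10 or more counts in each control had 1 to 3 counts summed over the overexpression group. The most abundant of these, Sobic.005G228400, had 365, 489 and 533 control counts and a single value of 2 in SbGhd7 OE replicate 3. Sobic.005G130400 had 150, 187 and 431 control counts and a value of 2 in SbGhd7 OE replicate 2, and Sobic.001G028600 had 45, 45 and 100 control counts and a value of 2 in SbGhd7 OE replicate 1. All 3 had more control counts than most of the 32 genes and missed the set by 1 value in 1 library. Among genes with 10 or more counts in each control, 63 had no count in 2 of the SbGhd7 OE libraries and 185 in 1 of them.

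A count of 0 in every SbGhd7 OE library does not show that no transcript was present. A floor of 3 counts over the SbGhd7 OE group corresponds to 0.0351 CPM. Against that floor the 32 genes were at least 10.1-fold to at least 349.8-fold lower in SbGhd7 OE, with a median bound of 29.3-fold. The bound exceeded 100-fold for 5 genes and lay between 10-fold and 100-fold for the other 27. These bounds cover counting error only, and they need each count to be 1 fragment, which the files do not establish. The count filter of the test passed 24 of the 32 genes, each only through the controls, and all 24 were called lower (edgeR adjusted p at most 0.0041), beside 25.3% of all tested genes. Because the rule had already fixed this direction, nothing is read from that count.

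The control levels of the 32 genes were low, with a small number of exceptions. Their mean control level ranged from 0.357 to 12.7 CPM with a median of 1.05 CPM, against a median of 14.7 CPM for all 19426 genes with 10 or more counts in each control. The median of the 32 genes lay above 8.45% of those genes, and the highest of the 32 lay above 46.6% of them. A mean under 1 CPM was found for 15 genes, under 2 CPM for 26 and of 5 CPM or more for 3. The 4 most abundant members held 51.5% of the 6158 control counts of the set. Summed over the set, the 3 controls were alike, at 60.8, 64.6 and 61.2 CPM in replicates 1, 2 and 3.

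Sobic.006G127900 was the most abundant, with control counts of 446, 557 and 215 (empty vector replicates 1, 2 and 3) and 0, 0 and 0 in SbGhd7 OE. Its control level was 12.7 ± 6.25 CPM (SD, n = 3), at least 349.8-fold above the SbGhd7 OE group. Replicate 3 was the lowest control, at 0.361 of the mean of the other two, and still far from the 0 of every SbGhd7 OE library. Sobic.003G026600 followed, with control counts of 285, 308 and 198 (8.15 ± 2.45 CPM, SD, n = 3) and 0 in each SbGhd7 OE library. It was at least 227.1-fold lower there. Here too replicate 3 was the lowest control.

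Sobic.005G130100 showed the opposite order among the controls, with 141, 116 and 458 counts in replicates 1, 2 and 3 (6.89 ± 4.79 CPM, SD, n = 3). Replicate 3 stood 3.00-fold above the mean of the other two, and without it the control mean was 4.13 CPM and the bound fell from 205.3-fold to 117.6-fold. Sobic.005G024900 had 147, 140 and 158 counts, at 4.50 ± 0.213 CPM (SD, n = 3), at least 127.8-fold above SbGhd7 OE. Its coefficient of variation over the controls, 4.73%, was the lowest of the 32 genes. Being the extreme of 32 values, it is given as a description only. Sobic.002G051400 had 88, 75 and 279 counts (4.26 ± 2.85 CPM, SD, n = 3), again highest in replicate 3. Without that library its mean was 2.62 CPM and its bound 74.6-fold in place of 126.9-fold.

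The next in order of level were below 2.2 CPM. Sobic.003G157000 had 46, 28 and 151 control counts (2.16 ± 1.70 CPM, SD, n = 3; 1.19 CPM without replicate 3), and Sobic.001G093200 had 69, 68 and 41 (1.84 ± 0.631 CPM). Sobic.005G159200 had 61, 33 and 76 counts, Sobic.008G001600 had 23, 49 and 95, and Sobic.001G111650 had 37, 26 and 91. Among these 5 genes replicate 3 was the highest control for 4 and the lowest for Sobic.001G093200. The remaining 22 genes had control sums of 35 to 125 counts. The lowest was Sobic.009G032000, whose 12, 12 and 11 counts were even across the controls (0.357 ± 0.0510 CPM, SD, n = 3) and at least 10.1-fold above SbGhd7 OE.

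**Figure D2:**
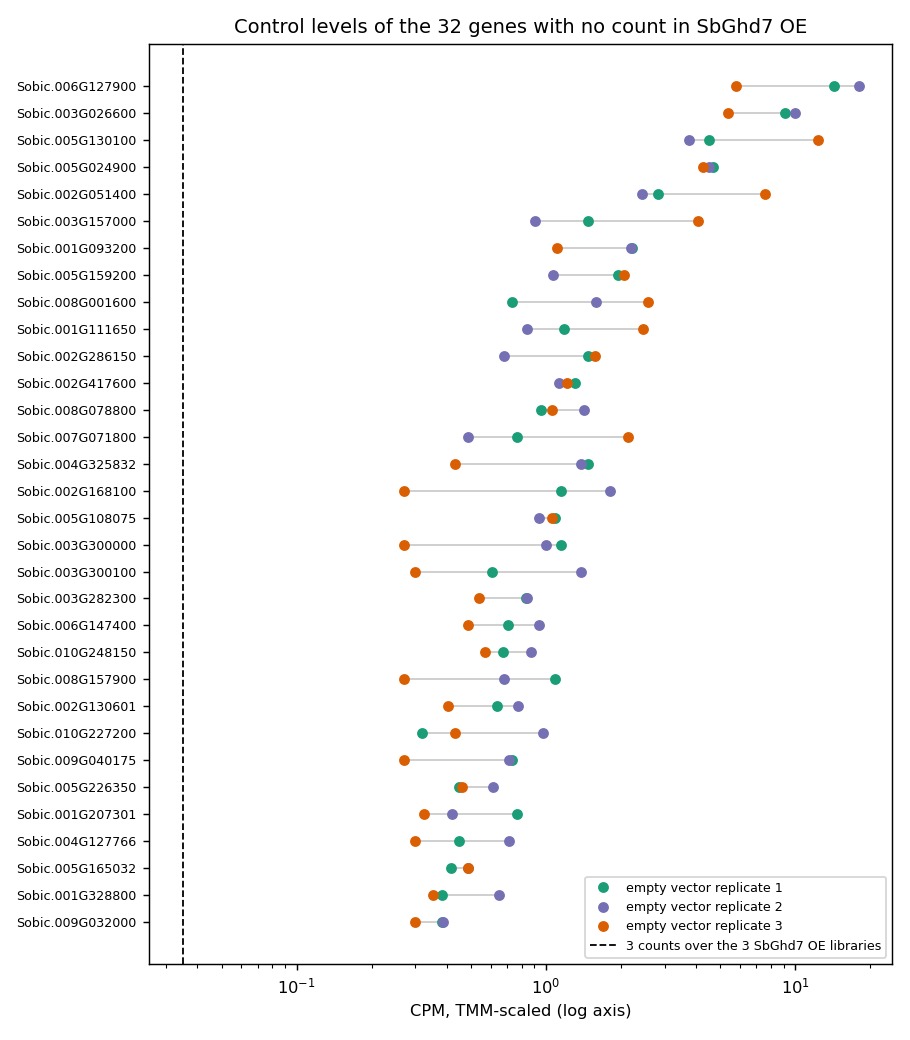
Control level of each of the 32 genes in TMM-scaled CPM (horizontal log axis), one row per gene in order of mean level, with a point for each empty vector library. The dashed line is the 0.0351 CPM that 3 counts over the 3 SbGhd7 OE libraries would give, and every control point lies to its right; all SbGhd7 OE values are 0 and cannot be drawn on a log axis.

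The controls differed among themselves more for the 32 genes than for most genes of the same level. The median coefficient of variation over the 3 controls was 41.3% (range 4.73% to 78.8%), against 17.7% in the other 9005 genes with 10 or more counts in each control and a mean in the range of the set. Those genes were more abundant (median 3.57 CPM), and the gap was smaller at the bottom of the range. Under 1 CPM the medians were 35.2% for 15 genes of the set and 29.5% for 1502 of the others, and from 1 to 2 CPM they were 39.3% for 11 genes and 25.6% for 1517 of them. The 3 genes from 2 to 5 CPM had a median of 66.9% and the 3 above 5 CPM one of 49.2%, against 18.1% and 12.4% in the others at those levels. No test of these differences was made.

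The spread was smaller without empty vector replicate 3. With that library left out the median coefficient of variation was 19.4% in the set and 11.9% in the other genes of the level range. Replicate 3 stood more than 2-fold above the mean of replicates 1 and 2 for 6 genes (18.8% of the set, against 3.01% of the others) and more than 2-fold below it for 7 (21.9% against 5.36%). Replicates 1 and 2 differed more than 2-fold for 4 genes (12.5% against 4.21%). The comparisons of this paragraph were not split by level. The other genes were more abundant (median 3.57 CPM against 1.05 CPM), so the level may account for part of these gaps, which was not tested. The 6 genes high in replicate 3 were Sobic.001G111650, Sobic.002G051400, Sobic.003G157000, Sobic.005G130100, Sobic.007G071800 and Sobic.008G001600. The 7 low ones were Sobic.002G168100, Sobic.003G300000, Sobic.003G300100, Sobic.004G325832, Sobic.006G127900, Sobic.008G157900 and Sobic.009G040175. The other 19 genes lay within 2-fold.

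The widest spread was that of Sobic.003G157000 (78.8%) and Sobic.007G071800, which had 24, 15 and 79 counts in replicates 1, 2 and 3 (78.2%). Without replicate 3 the mean of Sobic.007G071800 fell from 1.13 to 0.626 CPM. Sobic.003G300100, with 19, 43 and 11 counts (73.6%), was instead highest in replicate 2, and its mean fell from 0.766 to 0.453 CPM without that library. Leaving out replicate 2 also moved the means of Sobic.002G168100 (36, 56 and 10 counts), from 1.08 to 0.711 CPM, and of Sobic.010G227200 (10, 30 and 16 counts), from 0.575 to 0.376 CPM. At the even end stood Sobic.005G024900, Sobic.002G417600 with 41, 35 and 45 counts (7.30%) and Sobic.005G108075 with 34, 29 and 39 counts (7.62%). For these 3 genes the 3 controls agreed within a factor of 1.16 while all 3 SbGhd7 OE libraries were at 0.

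**Figure D3:**
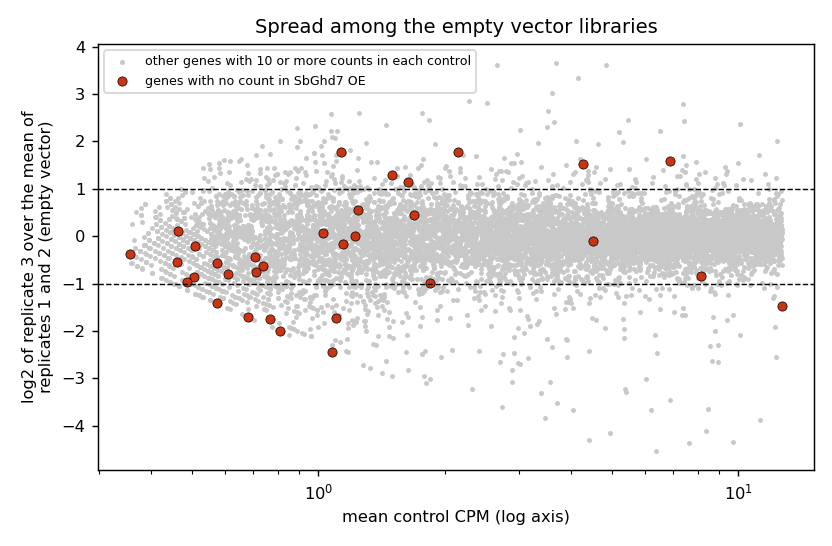
Log2 ratio of empty vector replicate 3 over the mean of replicates 1 and 2 (vertical axis) against mean control CPM (horizontal log axis) for the 32 genes (red) and for 9005 other genes of the same level range (grey). Dashed lines mark 2-fold, with 6 red points above the upper line and 7 below the lower one.

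The 32 genes were spread over all 10 chromosomes. Chromosome 5 held 6, chromosomes 2 and 3 held 5 each, chromosome 1 held 4, chromosome 8 held 3, chromosomes 4, 6, 9 and 10 held 2 each and chromosome 7 held 1. The 102 gene models outside the numbered chromosomes held none. Chromosome 5 thus carried 18.8% of the set, but 7.14% of all gene models and 5.16% of the genes with 10 or more counts in each control. The members of chromosome 5 made up 0.598% of its 1003 genes of that level, against 0.0771% to 0.281% on the other chromosomes. Chromosome 1, with 18.1% of the expressed genes, held 12.5% of the set. On chromosome 5 the numbers ran from 024900 to 226350, and the closest pair of its 6 genes had 54 gene models between them. SbGhd7 itself is numbered on chromosome 6, with 1282 gene models between it and the nearest member, Sobic.006G127900.

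Neighbouring members were the exception. Only Sobic.003G300000 and Sobic.003G300100 had consecutive gene models, and no other members had 5 or fewer gene models between them. The next closest, Sobic.005G159200 and Sobic.005G165032, had 54 between them, and over the 22 successive members of one chromosome the median was 708 gene models. Members that follow each other along a chromosome were thus usually far apart.

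A larger share of the 32 genes than of other genes carried a gene number that does not end in 00. There were 11 such genes (34.4%), against 15.2% of all gene models and 12.2% of the other genes of the level range. The most abundant of the 11 in the controls was Sobic.001G111650. Under 1 CPM the shares were 7 of 15 members (46.7%) and 17.0% of 1502 others, and from 1 to 2 CPM they were 4 of 11 (36.4%) and 13.8% of 1517 others. Of the 6 members above 2 CPM none had such a number. In the 84 genes with counts in SbGhd7 OE alone the share was 11.9%. The files do not say how the numbers were given.

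**Figure D4:**
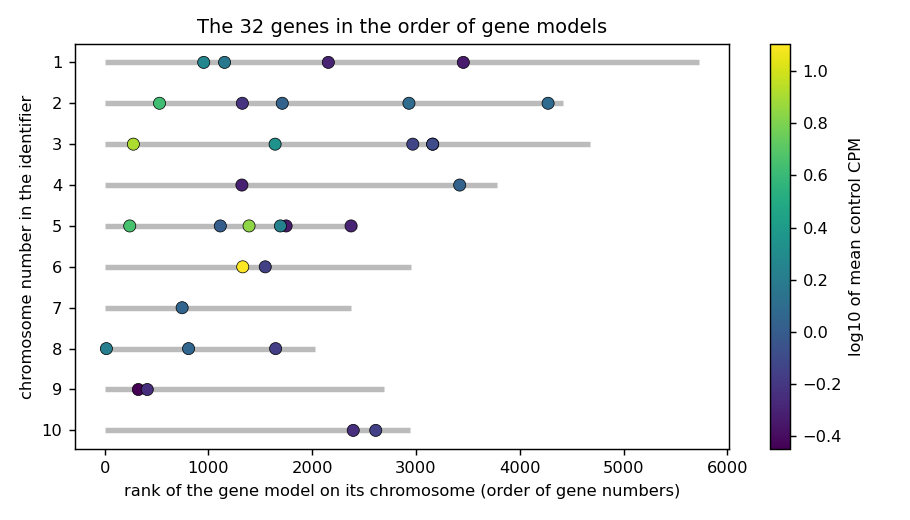
Each of the 32 genes at its rank among the gene models of its chromosome (horizontal axis, order of gene numbers) on chromosomes 1 to 10 (vertical axis), coloured by the log10 of its mean control CPM. Grey bars span all gene models of a chromosome; the consecutive pair on chromosome 3 falls on one spot, and chromosome 5 holds 6 genes.

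The genes beside the members were not chosen by the rule, and their changes were tested in the fit across all genes. The 5 gene models on each side of the members gave 310 genes, of which 72 (23.2%) had no count in any library, as had 7518 of all 34129 gene models. Of the 190 tested, 77 fell (40.5%), 36 rose (18.9%) and 77 did not pass, beside 25.3% and 28.0% called lower and higher over all tested genes. Falls of at least 2-fold were found for 48 (25.3%, against 11.6% overall) and rises of at least 2-fold for 23 (12.1%, against 16.2%). The median log2 fold change of the 190 was -0.16, and that of all tested genes was -0.00. Directly beside a member 20 of 40 tested genes fell, and the share was 43.2%, 43.9%, 39.5% and 23.5% at 2, 3, 4 and 5 gene models away. No test of the difference from all genes was made.

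Of the 32 members, 2 had both immediate neighbours fall, 16 had 1 fall and 14 had none, and 3 of them had neighbours that were both too low to test. The immediate neighbour of 6 members rose. Without a stated strand setting, reads of overlapping or antisense gene models cannot be told apart, so a member beside an abundant gene may share its reads. Whether that was so was not tested.

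**Figure D5:**
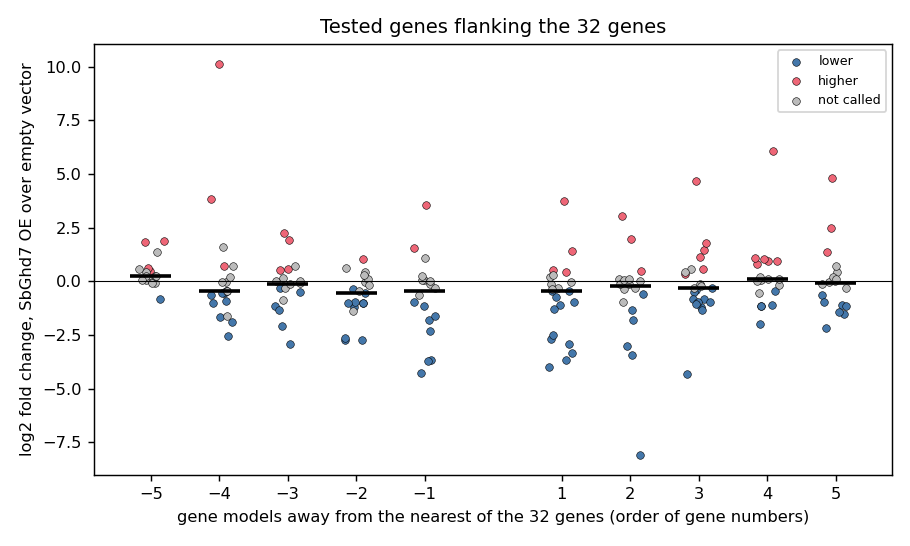
Log2 fold change of SbGhd7 OE over empty vector (vertical axis) for the 190 tested genes within 5 gene models of a member (horizontal axis, by position), with blue for lower, red for higher and grey for not called at an edgeR adjusted p under 0.05, and black bars for medians. Blue points are 20 of 40 directly beside a member and 23.5% at a distance of 5.

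The 5 largest falls beside members ranged from a nearly complete loss to a level of 0.0748 of the control. Sobic.005G130400, the second gene model after Sobic.005G130100, fell by 8.10 on the log2 scale (SE 0.729, edgeR adjusted p = 7.2e-05), from 7.51 ± 3.66 to 0.0217 ± 0.0376 CPM (SD, 3 libraries each). Without SbGhd7 OE replicate 2, which held its only value there, the fitted change was -10.85 (edgeR adjusted p = 5.1e-04). Like the member, it was highest in empty vector replicate 3, as were 35.3% of the 9005 other genes of the level range. The gene model between them, Sobic.005G130200, which was chosen after its values were seen, had control counts of 2654, 2451 and 3402 against 308, 385 and 430 in SbGhd7 OE (log2 fold change -2.70, SE 0.143, edgeR adjusted p = 7.4e-06). This gene was clearly detected in every SbGhd7 OE library, unlike the genes on either side of it.

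Sobic.003G282600, the third gene model after the member Sobic.003G282300 (26, 26 and 20 control counts), fell by 4.32 on the log2 scale (SE 0.366, edgeR adjusted p = 4.9e-05), from 9.65 ± 1.56 to 0.481 ± 0.247 CPM (SD, 3 libraries each). Sobic.003G156900, directly before Sobic.003G157000, had control counts of 200, 205 and 254 against 19, 0 and 9 in SbGhd7 OE (log2 fold change -4.29, SE 0.742, edgeR adjusted p = 0.0021). It was -5.37 without SbGhd7 OE replicate 1 and -3.68 without replicate 2, and passed in both cases (edgeR adjusted p = 0.0015 and 1.3e-04). One model further, and also chosen after its values were seen, Sobic.003G156800 had 1387, 1449 and 3462 control counts and 171, 480 and 156 in SbGhd7 OE (log2 fold change -2.74, edgeR adjusted p = 0.0040; -3.36 without SbGhd7 OE replicate 2). Its highest control was empty vector replicate 3, as was that of the member, at 151 counts against 46 and 28. Sobic.003G156900 between them was even across the controls.

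Of the tested immediate neighbours, 21 had a mean control level at least 10 times that of the member they adjoin, a limit set after the values were seen. Of these 21, 11 fell, beside 9 members, 4 rose and 6 did not pass. Among all 40 tested immediate neighbours 20 fell and 6 rose, so the share that fell was similar without the limit. Over all tested genes 25.3% were called lower and 28.0% higher. The neighbours with the largest such ratio were next to Sobic.004G325832 and Sobic.010G248150. Sobic.010G248150 (21, 27 and 21 control counts) precedes Sobic.010G248200, whose control counts of 15233, 14839 and 22276 compare with 981, 951 and 917 in SbGhd7 OE, a 15.6-fold fall in mean CPM (log2 fold change -3.97, SE 0.159, edgeR adjusted p = 3.0e-06). Sobic.004G325832 (46, 43 and 16 control counts) precedes Sobic.004G325900, chosen after its values were seen, with control counts of 38297, 36581 and 33016 against 2590, 1834 and 2831 in SbGhd7 OE, a 12.8-fold fall (log2 fold change -3.68, edgeR adjusted p = 1.8e-05). Sobic.004G325832 and Sobic.004G325900 were both lowest in empty vector replicate 3, the member by a larger factor. The other pair differed. Sobic.010G248150 was lowest in replicate 3 (0.671, 0.874 and 0.569 CPM in replicates 1, 2 and 3), while Sobic.010G248200 was highest there.

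The consecutive pair on chromosome 3 stood between a gene that fell and one that rose. Control replicates 1, 2 and 3 held 36, 31 and 10 counts of Sobic.003G300000 and 19, 43 and 11 of Sobic.003G300100, so replicate 3 was low for both. Before them, Sobic.003G299901 fell from 98, 95 and 121 counts to 5, 5 and 10 (log2 fold change -3.73, SE 0.393, edgeR adjusted p = 1.4e-04). After them, Sobic.003G300200 rose from 4, 9 and 23 counts to 177, 102 and 123 (log2 fold change 3.74, SE 0.528, edgeR adjusted p = 5.9e-04; 4.47 without empty vector replicate 3). Neither of the pair passed the count filter of the test.

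Rises beside members were fewer. Among the 4 most abundant members, the tested immediate neighbours of Sobic.006G127900, Sobic.003G026600 and Sobic.005G130100 fell. The only rise directly beside one of the 4 was that of Sobic.005G024800, before Sobic.005G024900, which was also chosen after its values were seen. Its control counts of 175, 203 and 526 compare with 3500, 2175 and 3089 in SbGhd7 OE, an 11.8-fold rise in mean CPM (log2 fold change 3.56, SE 0.417, edgeR adjusted p = 4.8e-04). Sobic.002G286500, the fourth gene model after Sobic.002G286150, had 2 counts in each control and 86, 161 and 126 in SbGhd7 OE (log2 fold change 6.07, SE 0.412, edgeR adjusted p = 1.8e-05). Sobic.008G158100 near Sobic.008G157900 went from 0, 3 and 5 counts to 83, 42 and 54 (log2 fold change 4.67, edgeR adjusted p = 9.6e-04; 5.33 without empty vector replicate 3). Sobic.002G417201 near Sobic.002G417600 rose by a log2 fold change of 3.82 (edgeR adjusted p = 1.7e-04), from 1.62 ± 0.843 to 22.7 ± 4.08 CPM (SD, 3 libraries each). Over all tested genes 28.0% were called higher.

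Of the 310 flanking genes 1 had the mirror pattern, as had 84 of all 34129 gene models. Sobic.005G226100, the fourth gene model before Sobic.005G226350 (14, 19 and 17 control counts), had no control count and 21, 367 and 30 counts in SbGhd7 OE. Its adjusted p was 0.027 in edgeR with the count filter and 0.092 without a filter, and most of its counts were in SbGhd7 OE replicate 2 (edgeR adjusted p = 0.0028 without that library). DESeq2 and the filter of 1 CPM in 3 libraries left it untested. The share of 1 in 310 was near that of all gene models. Nothing is therefore read from its place, with 3 gene models between it and Sobic.005G226350.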

How the data were processed

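Leaf RNA of 6 libraries was sequenced after TRIzol extraction, DNase I treatment and library preparation with a NEBNext Ultra kit, per the labels' protocols. The submitters' processing notes name HISAT2 2.2.1, StringTie 2.2.1 and DESeq2 2.11.40.7, with their roles, the genome build, the strand setting and any filtering not given in the sources used here. Per library, the authors deposited 1 whole number per gene model and library, taken here as estimated counts with no scaling. The value 2 was 2.91 to 3.57 times as frequent as 1, so how a count relates to a fragment is not known.

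The 32 members, the lists and the alternatives were chosen with earlier results of these data known. Groups and replicate numbers come from the titles. Genes passing filterByExpr (20820 of 26611 with a count) were TMM-normalised and tested with edgeR 4.0.16 (R 4.3.3), quasi-likelihood F-test, robust, group as the only term, Benjamini-Hochberg adjustment at 0.05; the SE is the absolute log2 fold change over the square root of F. CPM uses the effective library sizes of that fit. The procedure was tested on simulated data. DESeq2 1.42.0 was an alternative. Flanking genes are the 5 gene models on each side in the order of gene numbers. Named were SbGhd7, consecutive members, the 10 most abundant members, the 3 most and least variable, genes at the border of the rule, the 5 largest changes in each direction among flanking genes called with a mean of 1 CPM or more, and flanking genes absent from the controls; others are said to be chosen after their values were seen or are members.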

Additional observations from a re-analysis of the deposited data

How the results depend on the processing

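The number of genes without a count in SbGhd7 OE depends on the rule. It was 55 with a control minimum of 5 counts, 16 with 20 counts, 5 with 50 counts, 17 with a minimum of 0.5 CPM, 16 with values halved and 65 when up to 3 counts were allowed in SbGhd7 OE. Leaving out 1 library gave 36 to 56 genes, the most without empty vector replicate 3. Leaving out a library only loosens the rule, so all 32 had to remain among them and nothing is read from that. With the minimum of 20 counts the median control level was 1.66 CPM and no members were neighbours (0). The median coefficient of variation was between 19.4% and 45.7% with 1 control left out. With the filter of 1 CPM in 3 libraries 8 members were tested and called, and with values halved 14. Flanking genes that fell numbered 20 with 1 gene model on each side, 122 with 10 and 48 when a log2 fold change of at least 1 was asked, and those that rose 6, 82 and 23. In every fit the share of tested flanking genes that fell was above that of all tested genes, and the share that rose below it. Same-numbered libraries of the groups did not deviate together (correlations 0.00546, -0.055 and -0.105), so the numbers were not taken as pairs; with the replicate number as a block 69 flanking genes fell, 34 rose, all 24 tested members were called, and the log2 fold change of SbGhd7 was 8.70.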
